A study of Homo sapiens with 9 samples.

Results

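The 10 genes described here encode chemokines, small proteins that guide leukocytes by binding G-protein-coupled receptors. They are CXCL8, CXCL1, CXCL2, CXCL3, CXCL5, CXCL6, CXCL16, CCL2, CCL20 and CX3CL1. They were taken by gene symbol out of 19775 gene symbols on the array, and each is represented by its brightest probe set, the one with the highest mean log2 signal over the 9 arrays. The genes were named with their expression over the 3 groups of arrays already known, so their values are given as a description, without a test. All 10 genes had at least 1 probe set of their own, 16 in all, and 0 probe sets paired a member with another gene.

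RNA was measured in HepG2, an established human liver cancer line with many traits of hepatocytes. The 3 groups hold 3 arrays each. Knockdown1 and knockdown2 are both siRNA double knockdowns of HNF4alpha and HNF4gamma, related nuclear receptors (HNF4alpha controls a large share of liver-specific transcription), and the third group is the control of these knockdowns. The labels leave unstated what sets knockdown1 apart from knockdown2, what the control cells received, how long after transfection RNA was taken, or whether the arrays of a group came from separate cultures. The spread between arrays, and every p-value made from it, may therefore be technical.

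Chemokines are classed by the spacing of their first cysteines into CXC, CC and CX3C proteins. CXCL8 (interleukin-8) and CXCL1, CXCL2, CXCL3, CXCL5 and CXCL6 attract neutrophils through CXCR2, CXCL8 and CXCL6 also through CXCR1. CCL2 attracts monocytes through CCR2, and CCL20 attracts CCR6-bearing lymphocytes and dendritic cells. CXCL16 and CX3CL1 (fractalkine) are made as transmembrane proteins that can be shed from the cell surface by the proteases ADAM10 and ADAM17, and they bind CXCR6 and CX3CR1. Many chemokine genes are switched on by inflammatory signals through the transcription factor NF-kB, which binds DNA at kB sites, and hepatocytes are among their sources in the inflamed liver.

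Promoters are shown because 6 of the genes lie in 1 cluster on chromosome 4 and hold the same short kB letters. Of these 6, only CXCL8 gave a signal above the array median on any array. RefSeq sequences of build GRCh38.p14, 250 bases before to 50 bases after the start of the gene, were found for 7 of the 10 genes, and the promoters of CXCL16, CCL2 and CX3CL1 are not shown. The motif GGAATTTCC, searched on both strands, was found in 6 of these 7 promoters, all of them CXC genes, and in 0.461% of 35116 promoters of the same length. In CXCL8 (chr4:73740319-73740618, plus strand) it began 91 bases before the start, and in CXCL1, CXCL2, CXCL3, CXCL5 and CXCL6 it began 78, 77, 78, 90 and 89 bases before it. The longer NF-kB consensus, which overlaps the motif in those 5 genes, was found in 6 of the 7 promoters and in 5.91% of all. CXCL8 lacked it, and CCL20 (chr2:227813592-227813891, plus strand) held it on the minus strand from 79 bases before the start. These matches describe letters and are not evidence of binding. Capitals mark the GGAATTTCC letters in CXCL8 and the consensus match in CCL20, the genes with the highest and the lowest values in knockdown1 relative to control among the members that could be measured.
CXCL8: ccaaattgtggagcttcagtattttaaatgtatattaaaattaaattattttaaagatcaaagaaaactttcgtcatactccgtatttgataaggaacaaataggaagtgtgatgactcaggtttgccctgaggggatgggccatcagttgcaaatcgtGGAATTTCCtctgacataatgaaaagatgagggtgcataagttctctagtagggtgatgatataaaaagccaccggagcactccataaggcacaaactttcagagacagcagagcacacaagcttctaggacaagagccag
CCL20: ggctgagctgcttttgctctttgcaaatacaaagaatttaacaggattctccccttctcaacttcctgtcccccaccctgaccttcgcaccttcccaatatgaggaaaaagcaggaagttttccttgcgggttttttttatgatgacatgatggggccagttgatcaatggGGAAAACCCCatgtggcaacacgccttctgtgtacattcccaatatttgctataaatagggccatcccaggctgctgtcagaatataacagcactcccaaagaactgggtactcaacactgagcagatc

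The 5 other members in the cluster are shown by the 29 bases round the same letters, in capitals, to set their flanks beside those of CXCL8. The cluster also holds the chemokine genes PF4V1, PF4 and PPBP, which are no members and whose promoters are not shown. The windows lie at chr4:73869305-73869333 (plus strand), chr4:74099254-74099282 (minus), chr4:74038749-74038777 (minus), chr4:73998749-73998777 (minus) and chr4:73836579-73836607 (plus).
CXCL1: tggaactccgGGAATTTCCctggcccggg
CXCL2: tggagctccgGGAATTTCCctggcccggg
CXCL3: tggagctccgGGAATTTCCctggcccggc
CXCL5: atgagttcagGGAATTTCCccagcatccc
CXCL6: ctgagttcagGGAATTTCCccagcatccc

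The promoters of CXCL1 and CXCL3 matched at 84.7% of 300 bases in a global alignment, those of CXCL1 and CXCL2 at 80.0% and those of CXCL5 and CXCL6 at 83.7%. CXCL8 matched the 5 others at 54.7% to 57.3%. The AP-1 letters TGANTCA, on either strand, were found in CXCL8 (TGACTCA, from 137 bases before the start) and in no other of the 7, against 7.71% of all promoters. The letters CAAAGTCCA, which HNF4 proteins prefer, were in 0 of the 7 windows and in 0.384% of all. The TATA letters TATAAA were found in CXCL8 and CCL20, and in 11.5% of all promoters.

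Of the 10 genes, 4 gave signals that could be compared between groups. A probe set was kept where its signal lay above the median of its array on at least 3 of 9 arrays, and CXCL8, CXCL16, CCL20 and CX3CL1 passed. CXCL1, CXCL2, CXCL3, CXCL5, CXCL6 and CCL2 lay below the median on all 9 arrays in all 10 of their probe sets. The member probe set nearest above this limit was the dimmer one of CXCL8, above the median on 4 arrays, and the brightest value below it was 11.4, of CXCL3 in control replicate 1. Signals are linear MAS5 values scaled to a common array median of 14.1. Differences are given on the scale of log2(signal + 1.41), where 1.41 is a pseudocount that damps the scatter of dim probe sets and understates their change. The SE of each difference comes from a limma fit over 13056 genes, and for dimmer probe sets from a separate limma fit over probe sets.

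CXCL8 was high in knockdown1, far lower in knockdown2 and lowest in control. Its signals were 191, 182 and 224 in knockdown1, 21.3, 24.2 and 14.1 in knockdown2, and 9.91, 9.04 and 6.53 in control, for replicates 1, 2 and 3. No array of one group reached into the range of another. The means were 199 ± 21.7 (SD, n = 3), 19.8 ± 5.18 and 8.49 ± 1.75. The difference from control was 4.35 (SE 0.26) in knockdown1 and 1.09 (SE 0.26) in knockdown2, and knockdown1 exceeded knockdown2 by 3.26 (SE 0.26). As a ratio of mean signals, knockdown1 was 23.4 times control. All 3 control arrays lay below the array median, so the ratio to control rests on a dim denominator, and a larger pseudocount, set to the common median, lowered the difference in knockdown1 to 3.24. In bulk RNA a change in the share of cells that make a transcript and a change in the amount per cell cannot be told apart, here and for every gene that follows.

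A dimmer CXCL8 probe set gave 70.3, 47.1 and 59.1 in knockdown1, 9.95, 7.05 and 14.3 in knockdown2, and 5.01, 11.0 and 3.10 in control. Knockdown1 again stood apart, while knockdown2 and control overlapped. Its differences were 3.07 (SE 0.43) for knockdown1 against control, 0.69 (SE 0.43) for knockdown2 against control and 2.37 (SE 0.43) between the knockdowns. The higher level of CXCL8 in knockdown2 than in control therefore appeared without overlap in 1 of its 2 probe sets. Both carry suffixes that mark probes shared with other transcripts, so related sequences may contribute.

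**Figure D1:**
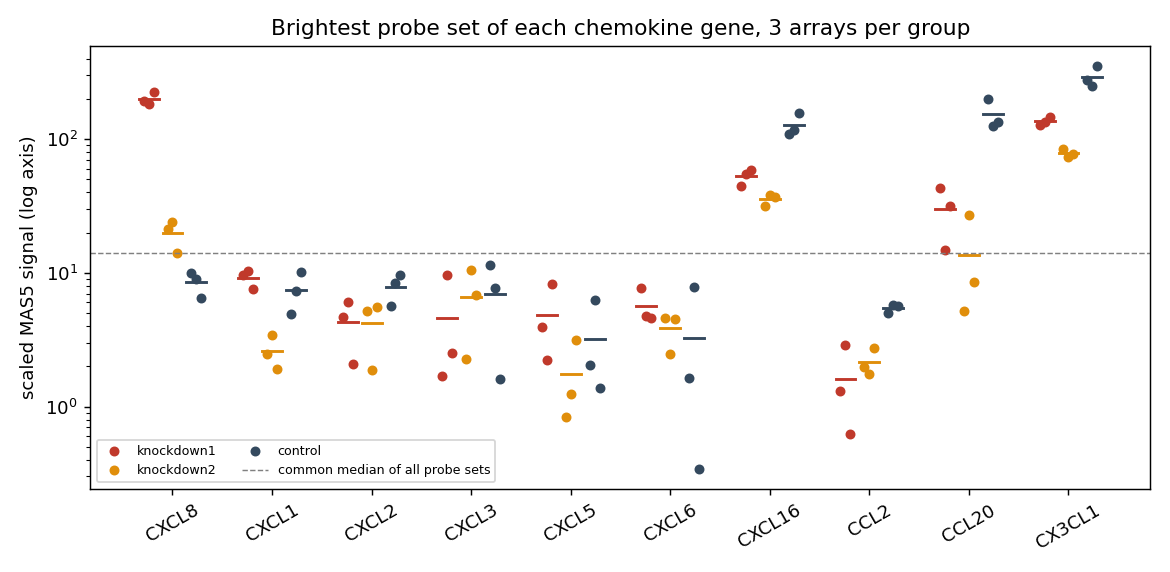
Scaled MAS5 signal (log axis) of the brightest probe set of each of the 10 chemokine genes. Points are single arrays in replicate order within knockdown1, knockdown2 and control, short bars are means of 3 arrays, and the dashed line is the common median of 14.1. CXCL8 was highest in knockdown1 (182 to 224), CXCL16, CCL20 and CX3CL1 were highest in control, and the other 6 genes stayed below the median on every array.

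CXCL16, the transmembrane ligand of CXCR6, was lower in both knockdowns than in control. Its signals were 44.8, 54.7 and 59.1 in knockdown1, 31.6, 38.0 and 37.0 in knockdown2, and 108, 116 and 156 in control. The 3 groups did not overlap, with knockdown2 lowest. The means were 52.9 ± 7.31 (SD, n = 3), 35.6 ± 3.46 and 127 ± 25.3. The difference from control was -1.23 (SE 0.19) in knockdown1 and -1.78 (SE 0.19) in knockdown2, and the knockdowns differed by 0.55 (SE 0.19). It was the smallest difference between the knockdowns among the 4 genes.

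CX3CL1, the other transmembrane chemokine, had the same order of groups. Its brightest probe set gave 128, 134 and 147 in knockdown1, 84.5, 74.0 and 77.9 in knockdown2, and 276, 249 and 351 in control. The groups did not overlap, and control exceeded knockdown1 by 2.14 times and knockdown2 by 3.71 times in mean signal. The means were 136 ± 9.57 (SD, n = 3), 78.8 ± 5.30 and 292 ± 53.1. The difference from control was -1.08 (SE 0.16) in knockdown1 and -1.86 (SE 0.16) in knockdown2, and knockdown1 lay 0.78 (SE 0.16) above knockdown2.

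The dimmer CX3CL1 probe set gave 48.2, 91.2 and 79.2 in knockdown1, 38.8, 4.98 and 19.2 in knockdown2, and 106, 134 and 131 in control. Its groups kept the same order without overlap, with a wide spread in knockdown2. The differences were -0.79 (SE 0.41), -2.83 (SE 0.41) and, between the knockdowns, 2.04 (SE 0.41). Both CX3CL1 probe sets thus placed knockdown2 lowest, and they disagreed on how far it lay below knockdown1.

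CCL20, the ligand of CCR6, showed the largest decrease of the 4 genes against control on the log2 scale in both knockdowns. Its signals were 43.1, 14.7 and 31.6 in knockdown1, 5.18, 27.2 and 8.52 in knockdown2, and 201, 124 and 133 in control. Every knockdown array lay far below every control array, and the ranges of the knockdowns overlapped. The means were 29.8 ± 14.3 (SD, n = 3), 13.6 ± 11.8 and 153 ± 41.8. The difference from control was -2.39 (SE 0.38) in knockdown1 and -3.61 (SE 0.38) in knockdown2. Between the knockdowns it was 1.22 (SE 0.38), which fell to 0.77 without knockdown2 replicate 1, 0.91 without knockdown1 replicate 1 and 1.12 without knockdown1 replicate 3. The low arrays of knockdown2 lie below the array median, where the size of a difference is least certain.

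**Figure D2:**
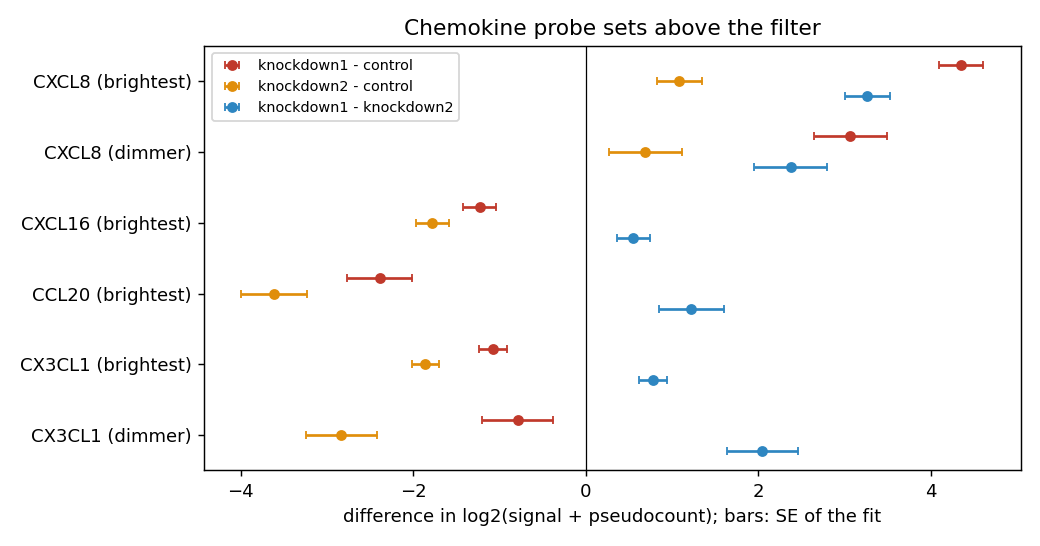
Differences in log2(signal + pseudocount) for the 6 chemokine probe sets above the filter. Points are the fitted differences of knockdown1 and knockdown2 from control and of knockdown1 from knockdown2, and bars are the SE of the fit. CXCL8 lies above 0 in all 3 comparisons, while CXCL16, CCL20 and CX3CL1 lie below 0 against control and above 0 between the knockdowns.

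The other 6 chemokines were too dim to compare, and their values are given only as ranges. CCL2 gave 0.63 to 2.87 in knockdown1, 1.76 to 2.74 in knockdown2 and 5.01 to 5.78 in control, so both knockdowns lay below control at levels under the median. CXCL1 gave 7.52 to 10.3, 1.89 to 3.42 and 4.90 to 10.1 in the same order, with knockdown2 apart from both other groups. CXCL2 gave 2.09 to 6.02, 1.87 to 5.58 and 5.62 to 9.63. Its knockdown2 arrays lay just below control, while knockdown1 overlapped it. CXCL6 gave 4.60 to 7.71 in knockdown1, 2.49 to 4.56 in knockdown2 and 0.34 to 7.77 in control, so the knockdowns did not overlap and control spanned both. CXCL3 (at most 11.4) and CXCL5 (at most 8.25) overlapped in every pair of groups. None of the neutrophil-attracting genes besides CXCL8 thus gave a signal above the median on any array, whichever of their probe sets was taken.

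In the fit over all genes, with Benjamini-Hochberg adjustment over 13056 genes and a threshold of 0.05, 4 of the 4 measured members passed in knockdown1 against control, 1 higher and 3 lower. There 33.3% of all tested genes passed, 14.3% higher and 19.0% lower. In knockdown2 against control 4 passed, again 1 higher and 3 lower, against 27.6% of all genes (13.7% higher and 13.9% lower). Between the knockdowns 4 passed, all higher in knockdown1, against 26.6% of all genes (10.5% higher and 16.1% lower in knockdown1). Groups without overlap were found in 39.8% of all tested genes for knockdown1 against control (18.1% higher and 21.7% lower), 39.7% for knockdown2 against control (19.9% and 19.8%) and 43.7% between the knockdowns (18.9% and 24.8%). Nothing is read from the members' counts, since they were named with these comparisons known. CXCL8 also passed the filter on dim signals only through its knockdown arrays. The comparisons of knockdown1 and of knockdown2 with control share the control arrays, and 8.26% of all genes were lower and 7.42% higher in both.

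The balance of higher and lower genes depended on the array scaling, and the members' directions did not. With values as deposited the share of higher genes among those that passed was 54.2% in knockdown1 against control and 57.1% between the knockdowns, against 42.9% and 39.4% after scaling to a common median. Quantile normalization gave 53.7% and 56.1%. The median difference of all genes between the knockdowns moved from -0.03 to 0.08 with values as deposited. Over all 19 alternatives the difference of CXCL8 from control ran from 3.24 to 4.57 in knockdown1 and from 0.58 to 1.30 in knockdown2. The lowest of each came with the larger pseudocount. With only the 2 groups compared in the fit, CXCL8 missed the threshold in knockdown2, and 3 members passed there. Between the knockdowns, CXCL16 missed it in 7 of 19 alternatives (0.43 to 0.67 over all) and CCL20 in 7 of 19 (0.69 to 1.83).

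The checks of the samples bear on all of these values. HNF4G, the gene of the targeted HNF4gamma, gave 18.5 ± 4.66 (SD, n = 3) in knockdown1, 31.6 ± 9.14 in knockdown2 and 46.0 ± 1.65 in control. Its dimmer probe set gave 6.33 ± 5.63, 5.72 ± 6.60 and 29.1 ± 8.11, and in both probe sets every knockdown array lay below every control array. The dimmer one was above the median only on the 3 control arrays. It thus passed the filter only through the group where it was high, and the mean of probe sets includes it. By the brighter one the knockdown1 arrays were lower in the fit too (-1.28, limma adjusted p = 5.38e-04), while knockdown2 did not pass (-0.56, limma adjusted p = 0.142, and -1.52, adjusted p = 0.0111, with the mean of probe sets). HNF4A was not analysed here. All 8 hepatocyte markers were above the filter, and TF, APOA1 and TTR among them fell in each knockdown. The other markers, ALB, AFP, SERPINA1, KRT8 and KRT18, passed in neither, with differences of -0.17 to 0.15. The TTR call in knockdown1 ended without knockdown1 replicate 1 or 2 or control replicate 3 (adjusted p = 0.0786 to 0.122). It also ended with no filter (limma adjusted p = 0.0641) and without a variance trend (limma adjusted p = 0.114). PTPRC, which marks leukocytes, lay below the median on all 9 arrays, and 3 of 8 leukocyte, 1 of 4 endothelial and 4 of 6 fibroblast markers passed the filter. The summed signal of the leukocyte markers ran from 2764 to 3509 in knockdown1, 3484 to 4350 in knockdown2 and 2991 to 3976 in control. Those of the endothelial markers were 74.5 to 91.9, 87.6 to 108.8 and 59.7 to 61.8, and those of the fibroblast markers 120.2 to 152, 113 to 145 and 99.3 to 143. Most of the leukocyte sum was 1 gene, LYZ, with means of 3005 in knockdown1, 3714 in knockdown2 and 3325 in control. CD163, AIF1, CD3E and MS4A1 were below the filter, as PTPRC was. The endothelial sum was higher in both knockdowns, and VWF, CDH5 and KDR were below the filter. CD3D rose in knockdown2 (1.49, SE 0.21, limma adjusted p = 3.47e-06). PECAM1 rose in both knockdowns by its brightest probe set (0.49 and 0.69, limma adjusted p = 0.0351 and 0.00402), while the mean of its probe sets in knockdown1 was -0.42 (adjusted p = 0.133) and in knockdown2 0.47 (adjusted p = 0.106). The PECAM1 call in knockdown1 ended without any one of knockdown1 replicate 1, 2 or 3 or control replicate 1 or 2 (adjusted p = 0.0568 to 0.0950). It also ended with no filter (limma adjusted p = 0.0816) and with only the 2 groups compared in the fit (limma adjusted p = 0.076). DCN fell in knockdown1 (-1.19, SE 0.44, limma adjusted p = 0.0389), a call that ended without any one of knockdown1 replicate 1 or 2, knockdown2 replicate 1, or control replicate 1, 2 or 3 (adjusted p = 0.0528 to 0.130). The DCN call also ended with no filter (limma adjusted p = 0.0559) and with only the 2 groups compared (limma adjusted p = 0.0629). The part of these markers in the chemokine values was not tested.

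Beyond the members, 136 genes were listed as other ligands, receptors, binding and shedding proteins, NF-kB signalling, inducible factors and cytokines, and 70 were tested. In knockdown1 against control 13 rose and 15 fell (40.0% of 70, against 33.3% of all genes), in knockdown2 17 rose and 8 fell (35.7%, against 27.6%). Between the knockdowns 3 were higher and 16 lower in knockdown1 (27.1%, against 26.6%). The median difference of the 70 genes was 0.08 in knockdown1 and 0.17 in knockdown2, beside -0.01 and 0.01 for all tested genes.

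Among 34 other chemokine ligands, 29 were annotated and 5 tested, the rest being below the filter. CCL16, a chemokine made by liver, was above the median on the 3 control arrays and 1 knockdown2 array, so it passed the filter through the group where it was high. It fell in knockdown1 from 29.4 ± 10.3 (SD, n = 3) in control to 7.70 ± 5.54 (-1.88, SE 0.56, limma adjusted p = 0.00975). That call ended without control replicate 1 (-1.63, adjusted p = 0.0781). All 3 knockdown1 arrays lay below the median, where the size is uncertain, and the larger pseudocount gave a difference of -0.999. In knockdown2 its level was 10.9 ± 6.80 and its difference -1.46 (SE 0.56, limma adjusted p = 0.0524). It passed in 6 of the 18 alternatives that kept it, the replicate block among them (adjusted p = 0.0418), and without knockdown2 replicate 2 the difference was -0.92 (adjusted p = 0.253). CXCL12, XCL1, CCL24 and CCL28 did not pass in either knockdown.

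Of 23 chemokine receptors, 21 were annotated and 5 tested. CCR6, the receptor of CCL20, fell in both knockdowns. Its signals were 19.3, 1.17 and 8.36 in knockdown1, 7.88, 10.4 and 14.1 in knockdown2, and 51.7, 67.3 and 98.2 in control. Each knockdown array was dimmer than each control array, and 1 of the 6 was above the array median. CCR6 therefore passed the filter only through the control arrays, the group where it was high. The differences were -3.15 (SE 0.51, limma adjusted p = 1.59e-05) and -2.58 (SE 0.51, limma adjusted p = 2.87e-04), and the larger pseudocount gave -1.91 in knockdown1. CCL20 and its receptor transcript were both lower in both knockdowns, where 8.26% of all tested genes passed as lower in both. Nothing is read from the pair, since CCL20 was named with these comparisons known and CCR6 passed through control.

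CXCR6, the receptor of CXCL16, rose in knockdown1 by 2.01 (SE 0.73, limma adjusted p = 0.0334), from signals of 18.4, 0.90 and 1.72 in control to 14.8, 21.0 and 24.4. The groups overlapped at control replicate 1. CXCR6 passed the filter only through the knockdown1 arrays, the group where it was high. The call ended on leaving out any one of knockdown1 replicate 1, 2 or 3 or control replicate 2 or 3, where the difference was 1.42 to 2.20 (adjusted p = 0.0548 to 0.133). It also ended without a variance trend (limma adjusted p = 0.0707). CXCR4, the receptor of CXCL12, rose in knockdown1 by 1.27 (SE 0.40, limma adjusted p = 0.0153), and that call ended without knockdown1 replicate 2 or 3 or control replicate 3 (adjusted p = 0.0538 to 0.0710). It was dim, at 26.9 ± 5.48 (SD, n = 3) in knockdown1 and 10.8 ± 4.93 in control, a mean below the common median. The larger pseudocount lowered the CXCR4 difference to 0.73. CXCR1, a receptor of CXCL8 and CXCL6, was above the median on only 3 arrays. It did not pass in either knockdown (-0.05 and 0.13, limma adjusted p = 0.967 and 0.908). CXCR2, CCR2 and CX3CR1, also receptors of members, were below the filter.

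The 8 genes of ligand shedding and binding were all tested. In knockdown1 4 fell and 0 rose, in knockdown2 2 fell and 1 rose. Among all tested genes 19.0% fell and 14.3% rose in knockdown1, and 13.9% and 13.7% in knockdown2. SDC2, a heparan sulfate proteoglycan of the kind that holds chemokines at the cell surface, fell in both (-1.23, SE 0.14, limma adjusted p = 3.93e-08, and -0.77, SE 0.14, limma adjusted p = 7.43e-05). DPP4, a membrane protease that trims several chemokines, fell in both (-0.65, SE 0.14, limma adjusted p = 4.38e-04, and -1.14, SE 0.14, limma adjusted p = 2.41e-07). SDC4, another proteoglycan of this family, rose in knockdown2 from 199.7 ± 13.3 to 433 ± 22.1 (1.11, SE 0.14, limma adjusted p = 9.68e-07). Its difference in knockdown1 was -0.34 (SE 0.14, limma adjusted p = 0.0747). That difference passed with values as deposited, quantile normalization, the mean of probe sets and the replicate block (-0.34 to -0.25, adjusted p = 0.0397 to 0.0496).

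Of 23 tested genes of NF-kB signalling, 3 rose and 6 fell in knockdown1 and 5 rose and 3 fell in knockdown2. In all, 33.3% of tested genes passed in knockdown1 (14.3% higher, 19.0% lower) and 27.6% in knockdown2 (13.7% higher, 13.9% lower). NFKBIA, which encodes the inhibitor that holds NF-kB in the cytoplasm and is itself an NF-kB target, fell in knockdown1 from 304 ± 65.0 to 133 ± 10.3 (-1.16, SE 0.17, limma adjusted p = 3.46e-06). In knockdown2 it was 263 ± 41.1, a difference of -0.20 (limma adjusted p = 0.443). NFKBIZ, an inducible nuclear regulator of NF-kB, fell in both (-0.91 and -1.02, SE 0.17, limma adjusted p = 7.96e-05 and 2.75e-05). The receptor genes LTBR (0.89 and 1.36, SE 0.21, limma adjusted p = 0.00125 and 9.85e-06, with overlap of knockdown1 and control) and IL1R1, the interleukin-1 receptor (0.96 and 0.92, SE 0.16, limma adjusted p = 2.47e-05 and 6.27e-05), rose in both. The NF-kB subunit genes NFKB1, NFKB2, RELA, RELB and REL did not pass in any of the 3 comparisons.

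Of 13 tested inducible transcription factor genes, 5 rose and 2 fell in knockdown1 and 7 rose and 0 fell in knockdown2. The shares over all tested genes were 14.3% higher and 19.0% lower in knockdown1, and 13.7% and 13.9% in knockdown2. The AP-1 genes FOS (1.69 and 2.38, SE 0.40, limma adjusted p = 0.00135 and 3.58e-05) and FOSL1 (0.76 and 1.54, SE 0.16, limma adjusted p = 4.37e-04 and 2.14e-08) rose in both, as did the growth-response gene EGR1 (1.77 and 1.62, SE 0.25, limma adjusted p = 1.73e-06 and 9.31e-06). FOS was dim in control (2.55 to 14.2). Its difference in knockdown1 was 1.10 without control replicate 1 (adjusted p = 0.0107), and the larger pseudocount gave 0.89 and 1.40. FOSL1 was lower in knockdown1 than in knockdown2 (-0.78, SE 0.16, limma adjusted p = 4.37e-04), the opposite order from CXCL8. The interferon-induced factor IRF1 was lower in knockdown1 than in control (-0.64, limma adjusted p = 0.00755, and -1.33 with the mean of its probe sets). In knockdown2 it gave -0.46 (adjusted p = 0.0642), which passed under 6 of 19 alternatives, quantile normalization among them (-0.48, adjusted p = 0.0248).

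Of 16 tested cytokine genes and other NF-kB targets, 3 rose and 1 fell in knockdown1 and 4 rose and 2 fell in knockdown2. Over all tested genes 14.3% rose and 19.0% fell in knockdown1, and 13.7% and 13.9% in knockdown2. IL1RN, the secreted antagonist of the interleukin-1 receptor, fell from 157 ± 33.4 in control to 19.3 ± 1.58 and 15.1 ± 5.31 (-2.91 and -3.28, SE 0.26, limma adjusted p = 5.05e-10 and 1.07e-10). IL11 and LIF, cytokines of the interleukin-6 family, rose in both, IL11 by 0.73 and 2.24 (SE 0.18, limma adjusted p = 0.00258 and 2.88e-10) and LIF by 1.11 and 1.81 (SE 0.16, limma adjusted p = 2.66e-06 and 9.22e-10). The IL11 call in knockdown1 ended with the mean of its probe sets (0.83, adjusted p = 0.0545). IL32 fell in knockdown2 (-0.73, SE 0.15, limma adjusted p = 5.10e-04) and gave 0.20 (limma adjusted p = 0.325) in knockdown1. IL6, TNF and VCAM1 were below the filter.

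**Figure D3:**
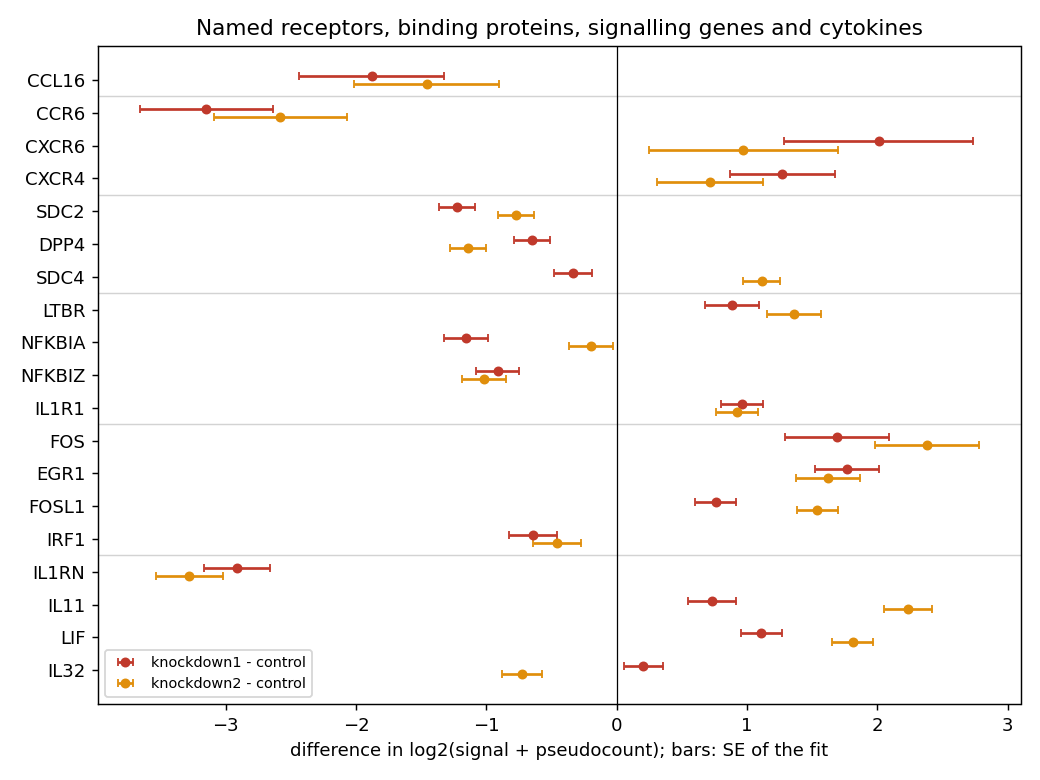
Differences from control in log2(signal + pseudocount) for the named genes that are no members, grouped from top to bottom as ligand, receptors, shedding and binding, NF-kB signalling, inducible factors, and cytokines. Points are fitted differences of knockdown1 and knockdown2 and bars the SE of the fit. CCR6 and IL1RN show the lowest values in both knockdowns, and FOS and IL11 the highest in knockdown2.

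The neighbours of the CXC cluster on chromosome 4 were unlike in response. In RefSeq order, ALB, AFP, AFM and RASSF6 lie on one side of CXCL8, and MTHFD2L, EPGN, EREG, AREG, BTC and PARM1 beyond CXCL2. PF4V1, PF4 and PPBP, chemokine genes counted here as neighbours, lie between the members. Of 13 listed neighbours 11 were annotated and 5 tested, and 2 rose in each knockdown. For all tested genes the share that rose was 14.3% in knockdown1 and 13.7% in knockdown2. MTHFD2L, a mitochondrial folate enzyme gene next to CXCL2, gave 786 ± 95.6 in knockdown1, 399.8 ± 24.2 in knockdown2 and 240 ± 54.8 in control (1.72 and 0.75, SE 0.16, limma adjusted p = 1.22e-09 and 5.66e-04). EREG, which encodes the growth factor epiregulin, gave 197 ± 7.20, 387 ± 37.6 and 42.9 ± 4.97 (2.17 and 3.13, SE 0.15, limma adjusted p = 7.62e-12 and 1.74e-14). By these brightest probe sets MTHFD2L was highest in knockdown1, as CXCL8 was, and EREG highest in knockdown2. Some other probe sets differed. The second EREG probe set had a difference of 0.21 between knockdown1 and knockdown2, and 1 of the dimmer MTHFD2L probe sets, with 36.9 ± 3.52 in knockdown1 and 59.8 ± 18.3 in knockdown2, had one of -0.64. The remaining dimmer MTHFD2L probe sets had the sign of the brightest, with 0.59, 0.99, 0.99 and 0.08. With the mean of probe sets neither gene passed between the knockdowns (EREG adjusted p = 0.156, MTHFD2L adjusted p = 0.0512). The albumin gene ALB, the alpha-fetoprotein gene AFP and PARM1 did not pass in any comparison, and AFM, RASSF6, PF4V1, PF4, PPBP and BTC were below the filter. EPGN and AREG were not analysed here.

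**Figure D4:**
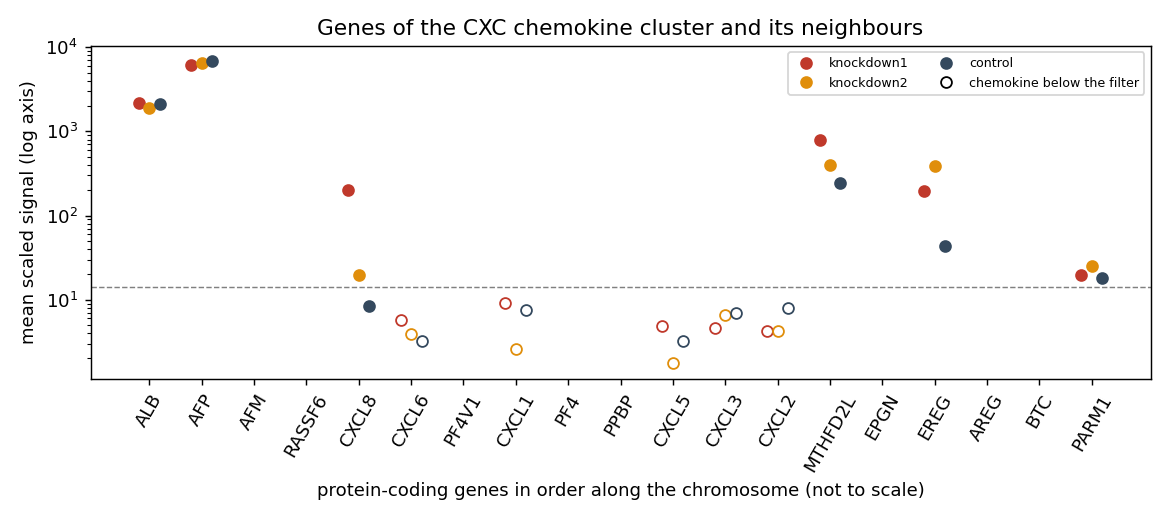
Mean scaled signal (log axis) of protein-coding genes round the CXC chemokine cluster, in their order along chromosome 4, for knockdown1, knockdown2 and control (means of 3 arrays). Filled circles are tested genes and open circles member chemokines below the filter, and the dashed line is the common median of 14.1. Genes without a circle are other genes below the filter, the chemokines PF4V1, PF4 and PPBP among them, or not analysed. Levels are compared between groups within a gene, not between genes. CXCL8 is highest in knockdown1 (199), and MTHFD2L and EREG are higher in both knockdowns than in control.

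Genes whose log2 signals followed CXCL8 most closely over the 9 arrays were GLIPR1 (Pearson r = 0.989), ZMYM5 (r = 0.986), LINC00326 (r = 0.980), CD163L1 (r = 0.974) and ZFP91 (r = 0.973). For CX3CL1 they were TMEM170B (r = 0.996), BTBD7 (r = 0.995), APOA5 (r = 0.994), ALDH5A1 (r = 0.992) and C1orf115 (r = 0.991). These values describe likeness over 9 arrays in 3 groups, and differences between the groups make up most of it. GLIPR1 gave 294 ± 71.1 in knockdown1, 86.4 ± 5.90 in knockdown2 and 61.3 ± 7.52 in control, and TMEM170B gave 46.2 ± 1.67, 27.9 ± 0.91 and 96.1 ± 12.1. CCL2, the third gene chosen for this comparison, was too dim for it.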

How the data were processed

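Total RNA of HepG2 cells was hybridised to 9 arrays, 3 each of knockdown1, knockdown2 and control, grouped by their titles. The authors deposited an intensity per probe set, on a linear scale, from MAS5, per the submitters' processing notes, with no version given in the sources used here and no detection calls used. Their trimmed mean was 100.0 on every array. Array medians ran from 12.3 to 15.7, and each array was multiplied by 0.898 to 1.15 to reach 14.1. The number of arrays limits the precision.

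Of 54675 probe sets, 41091 had 1 gene symbol and 1801 several, by the platform annotation. A filter (above the array median on 3 or more of 9 arrays) and the brightest probe set per gene left 13056 genes, tested with limma 3.58.1 in R 4.3.3 (all 9 arrays, 3 groups, variance trend, two-sided, Benjamini-Hochberg over all genes, threshold 0.05). The fit was checked on simulated data. Dimmer probe sets come from a fit over all probe sets with 1 gene symbol that passed the filter.

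Members and gene lists were chosen with earlier results of these data known. Named were all members, HNF4G, up to 3 called genes per list with the largest change against control and 1 against the majority, the cluster neighbours, and the 5 genes most like CXCL8, CCL2 and CX3CL1. Alternatives covered scaling, pseudocount, filter, probe-set choice, replicate block, groups in the fit, variance trend and each array left out. Of 53 dimmer probe-set values of named genes, 49 had the sign of the brightest, and 1 opposite value, of PECAM1, passed the threshold.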

Additional observations from a re-analysis of the deposited data

Results flagged for a closer look

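Differences between the knockdowns, tested directly as knockdown1 minus knockdown2 in the limma fit over all genes, mark the genes below. Among the chemokines the log2 difference was 3.26 for CXCL8, 1.22 for CCL20, 0.78 for CX3CL1 and 0.55 for CXCL16, given as a description because these genes were named with the comparison known. Among the genes named from the lists and the cluster neighbours, knockdown1 was higher for MTHFD2L (0.97), IL32 (0.93) and DPP4 (0.49). Knockdown1 was lower for IL11 (-1.51), CD3D (-1.46), SDC4 (-1.45), EREG (-0.97), NFKBIA (-0.96), FOSL1 (-0.78), LIF (-0.70) and SDC2 (-0.45). The 10 genes whose pattern was most like CXCL8 or CX3CL1 were also higher in knockdown1, by 0.50 (BTBD7) to 1.73 (GLIPR1 and LINC00326). They were chosen for their pattern over these arrays, so this is a description. SDC4 is the 1 of the listed genes whose arrays lay below control in every knockdown1 array and above control in every knockdown2 array. The SDC2 difference missed the threshold without knockdown2 replicate 1, knockdown1 replicate 2 or knockdown2 replicate 2 (adjusted p = 0.0509 to 0.0820), and that of DPP4 without knockdown2 replicate 1 (adjusted p = 0.0737). With the mean of probe sets, EREG gave -0.38 (adjusted p = 0.156) and MTHFD2L 0.49 (adjusted p = 0.0512).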

How the results depend on the processing

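Against control, CXCL16, CCL20 and CX3CL1 kept their direction and passed the threshold under all 19 alternatives in both knockdowns, and CXCL8 did in knockdown1. These genes were named with the comparisons known, so this describes the effect of processing and is no test of them. The count of members past the threshold between the knockdowns was 4, and 2 without a variance trend. With no filter all 10 members were tested and 3 passed, CXCL8, CX3CL1 and the dim CXCL1, while CXCL16 and CCL20 did not. Leaving out 1 array at a time gave 2 to 4, the lowest without knockdown2 replicate 1 or knockdown1 replicate 3. CD3D in knockdown1 against control, 0.03 in the fit of all arrays and not past the threshold, ran from -0.10 to 0.21 with 1 array left out. PECAM1 in knockdown1 was -0.42 with the mean of its probe sets. Counts of all genes past the threshold ran from 3573 to 5790, 2807 to 4927 and 2692 to 4919 over the alternatives. The causes were not tested. Replicate numbers are shared by the groups, and no label says that they pair arrays. Deviations of same-numbered arrays correlated at -0.02 to 0.13, and the best match had the same number in 9 of 18 cases. With the replicate block, 4996, 4265 and 4147 genes passed, with 4, 4 and 4 members and 31, 30 and 23 listed genes that are no members. Dim signals limit fold changes, and 31.6% of tested genes had a mean signal under 50.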

Other observations

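The following genes of the lists were picked after their values were seen. ADAM10, a protease that sheds CXCL16 and CX3CL1, was lower in knockdown1, at 1023 ± 131 (SD, n = 3) against 1635 ± 353 in control (-0.66, limma adjusted p = 8.04e-04), and gave 0.16 (limma adjusted p = 0.465) in knockdown2, while ADAM17 passed in neither. CSF1, the macrophage growth factor gene, rose in knockdown2 from 66.7 ± 12.2 (SD, n = 3) to 173 ± 6.05 (1.37, SE 0.18, limma adjusted p = 1.54e-06). IL1RAP, the accessory chain of the interleukin-1 receptor, fell in both, to 188 ± 21.9 and 175 ± 34.1 against a control level of 351 ± 68.0 (limma adjusted p = 1.64e-04 and 5.20e-05), while IL1R1 rose. STAT3 rose in both (1.35 and 0.67, SE 0.15, limma adjusted p = 6.22e-08 and 0.00132).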
